A study of Mus musculus with 26 samples.

Results

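The Ikaros family transcription factors were followed through an RNA-seq series on CXCR4 signalling and immunoglobulin kappa (Igk) recombination in mouse B-lineage cells. The members were chosen by name as Ikzf1 (Ikaros), Ikzf2 (Helios) and Ikzf3 (Aiolos), 3 of the 23762 gene symbols in the count table, and all 3 were among the 14862 genes tested. They are zinc finger proteins that bind DNA as dimers with each other and recruit chromatin complexes, the NuRD complex among them. In pre-B cells, which have assembled a heavy chain and next rearrange a light chain gene, Ikaros and Aiolos are known for silencing the surrogate light chain and cell cycle genes and for favouring light chain rearrangement. Helios is best known from T cells and early blood progenitors.

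The 18 libraries formed 9 groups of 2, each from mouse cells. Sorted small pre-B cells were labelled wild type or CXCR4-/-, the receptor of the chemokine CXCL12 being absent in the latter according to the label. Cultured pre-B cells of no stated CXCR4 deletion, called sufficient here, had 5 media: IL-7 alone (a cytokine on which B progenitors grow), neither factor, CXCL12 alone, IL-7 plus CXCL12, or CXCL12 plus ERK inhibitor II, which blocks the kinase ERK, in the absence of IL-7. Cultured small pre-B cells labelled CXCR4-/- were kept without IL-7, alone or with CXCL12. Replicate 2 without IL-7 carries small pre-B in its title, and replicate 2 without IL-7 with CXCL12 carries it in its column, so labelled stage goes with genotype only in part. The sources used here give no strain, age, Cre driver, deleted part of Cxcr4, dose or time. The labels do not state whether the 2 replicates of a group are separate animals or cultures, and the p-values cover only the scatter of the libraries at hand, possibly a technical one.

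Totals ran from 17257914 to 50235192 counts per library. Cxcr4 itself was at 943 and 922 CPM (counts scaled to a common library size, after TMM) in sorted wild-type cells and at 37.2 and 409 CPM in the sorted libraries labelled CXCR4-/-, where replicate 2 is only partly lowered. In the cultures labelled CXCR4-/- it was at 114 and 130 CPM without factors against 169 and 171 CPM in sufficient cells, and at 137 and 133 CPM with CXCL12 against 237 and 226 CPM. Cxcr4 was thus lower without overlap in both media, but neither difference passed (edgeR adjusted p = 0.529 and 0.315), and its transcript remained well detected. That test shares the spread of a gene over all groups, including the sorted CXCR4-/- pair at 37.2 and 409 CPM. Summed pre-B cell markers (10 genes, none at 0 in any group) were at 3621 to 11733 CPM in all libraries. The 4 libraries with IL-7 and CXCL12 or with ERK inhibitor stand apart, with Gapdh at 1399 to 1730 CPM against at most 12.3 CPM in the other 14. Xist, expressed from the inactive X of females, was at 1251 to 1519.7 CPM in those 4 and at 0.371 to 1.54 CPM in the other 10 cultures, so media compared across that divide cannot be told apart from it. The replicates of CXCR4-/- cells without IL-7 also differed far more from each other than any other pair (median chi-square per gene 43.8 against 0.557 to 4.72). The pairs without IL-7 and with CXCL12 alone, at 0.601 and 0.557, came close to the 0.455 of counting error alone, and counting each as 1 library ends the calls in sorted cells, for IL-7 withdrawal and for CXCL12 in CXCR4-/- cultures.

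For orientation, both annotated starts of Ikzf1 are shown, Ikzf1 alone of the 3 members being listed in the RefSeq promoter table (GRCm38.p6) used here. Each run is the 250 bases before a start on the plus strand of chromosome 11, at chr11:11685675-11685924 and chr11:11689927-11690176. Capitals mark the letters GGAA or their reverse complement, searched on both strands, the core shared by ETS factors and by Ikaros itself.
Ikzf1 start 1: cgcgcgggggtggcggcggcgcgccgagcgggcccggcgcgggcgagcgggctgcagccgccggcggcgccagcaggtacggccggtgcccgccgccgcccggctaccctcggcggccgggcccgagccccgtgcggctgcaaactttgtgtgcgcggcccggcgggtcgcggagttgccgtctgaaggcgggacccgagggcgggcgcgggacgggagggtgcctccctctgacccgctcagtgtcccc
Ikzf1 start 2: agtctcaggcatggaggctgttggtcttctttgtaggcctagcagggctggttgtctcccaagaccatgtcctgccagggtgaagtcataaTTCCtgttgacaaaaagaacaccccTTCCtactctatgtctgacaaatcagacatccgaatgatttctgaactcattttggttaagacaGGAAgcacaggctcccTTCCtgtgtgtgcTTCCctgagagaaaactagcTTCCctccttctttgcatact
The stretch before start 1 is 82.0% G or C and holds no GGAA on either strand, whereas 93.4% of 32851 promoter windows of the same length hold at least 1. The stretch before start 2 is 47.6% G or C and holds 6. An extended Ikaros core, TGGGAA, which contains the shorter one, was in neither window and is in 21.6% of all windows. The E protein site CAGGTG was in neither and is in 17.2%. Interferon-response type pairs, searched on both strands with 2 bases between their parts, were in neither window: the tandem form of GAAA is in 2.98% of windows, and the composite form that starts with the ETS core is in 2.3%. These are letter matches alone, and the counts do not separate the starts.

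Ikzf1, the founding member, was highest in sorted cells and lowest in CXCR4-/- cultures without IL-7. It was at 1548 and 1525 CPM in sorted wild-type cells and at 1333 and 1322 CPM in sorted CXCR4-/- cells. Sufficient cultures held 894 and 891 CPM with CXCL12, 842 and 836 CPM in medium lacking either factor, and 582 and 571 CPM on IL-7. The 2 factors together gave 534 and 549 CPM, CXCR4-/- cells with CXCL12 479.8 and 519 CPM, ERK inhibitor 460.25 and 458 CPM, and CXCR4-/- cells without IL-7 289.99 and 452 CPM. No neighbouring groups in this order overlapped, although several gaps were narrow, and the top group averaged 4.14 times the bottom one.

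Ikzf3, which rises as B cells mature, spread more widely. Sorted wild-type cells held 1047 and 975 CPM, cultures with CXCL12 843 and 837 CPM, and sorted CXCR4-/- cells 525 and 569 CPM. Withdrawn cultures held 518 and 505 CPM, and those kept on IL-7 404 and 376 CPM. CXCR4-/- cells with CXCL12 held 239 and 344 CPM, IL-7 with CXCL12 246 and 276 CPM, and ERK inhibitor 234 and 249 CPM. These 3 low groups ran into each other, while CXCR4-/- cells without IL-7, at 75.0 and 176 CPM, lay below all others. Sorted wild-type cells averaged 8.05 times their level.

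Ikzf2 took another order and rested on 23 to 530 counts per library. ERK inhibitor cultures were highest at 11.6 and 10.3 CPM (95% exact Poisson intervals 10.7 to 12.7 and 9.39 to 11.2, counting error only), followed by IL-7 with CXCL12 at 8.35 and 9.50 CPM. Next came CXCL12 alone at 5.85 and 4.95 CPM, no factor at 3.77 and 4.0 CPM, and IL-7 alone at 2.90 and 3.41 CPM. CXCR4-/- cells with CXCL12 were at 2.12 and 3.16 CPM, sorted wild-type cells at 2.43 and 2.14 CPM, sorted CXCR4-/- cells at 2.12 and 1.85 CPM, and CXCR4-/- cells without IL-7 at 0.949 and 1.18 CPM (intervals 0.602 to 1.42 and 0.747 to 1.77). CXCR4-/- cells with CXCL12 overlapped the IL-7 and the sorted wild-type groups, and the other neighbours did not overlap.

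**Figure D1:**
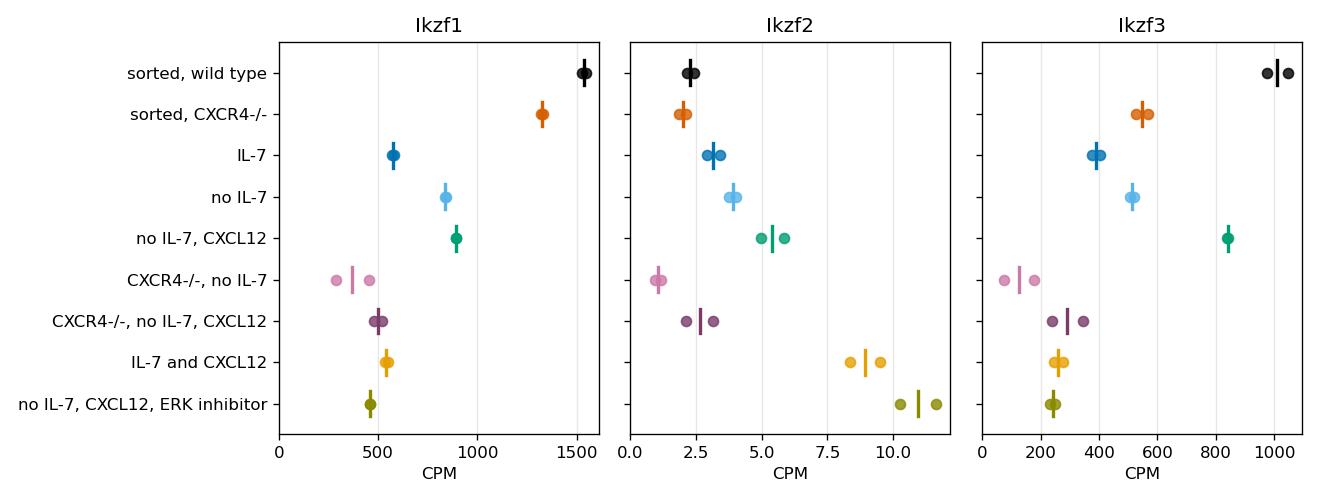
Ikzf1, Ikzf2 and Ikzf3 in CPM (linear axes from 0, a separate scale per gene) in the 9 groups, points being libraries and bars group means. Ikzf1 and Ikzf3 peak in sorted wild-type cells at 1548 and 1047 CPM, and Ikzf2 with ERK inhibitor at 11.6 CPM.

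To follow Ikzf3 relative to Ikzf1 within a library, their counts were divided. Gene length is not removed from this ratio, so it is read between groups and not as a level of 1 gene against the other. Per 100 Ikzf1 counts there were 94.3 and 93.9 of Ikzf3 in sufficient cultures with CXCL12, above all other libraries. IL-7 cultures had 69.4 and 65.9, sorted wild-type cells 67.6 and 63.9, and cultures without IL-7 61.6 and 60.4. Sorted CXCR4-/- cells had 39.4 and 43.0, and CXCR4-/- cultures without IL-7 had 25.9 and 39.0. CXCR4-/- cells with CXCL12 had 49.8 and 66.3, ERK inhibitor cultures 50.8 and 54.3, and IL-7 with CXCL12 46.2 and 50.3. The ratio was therefore lower in both sorted CXCR4-/- libraries than in both sorted wild-type ones, a difference not tested.

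**Figure D2:**
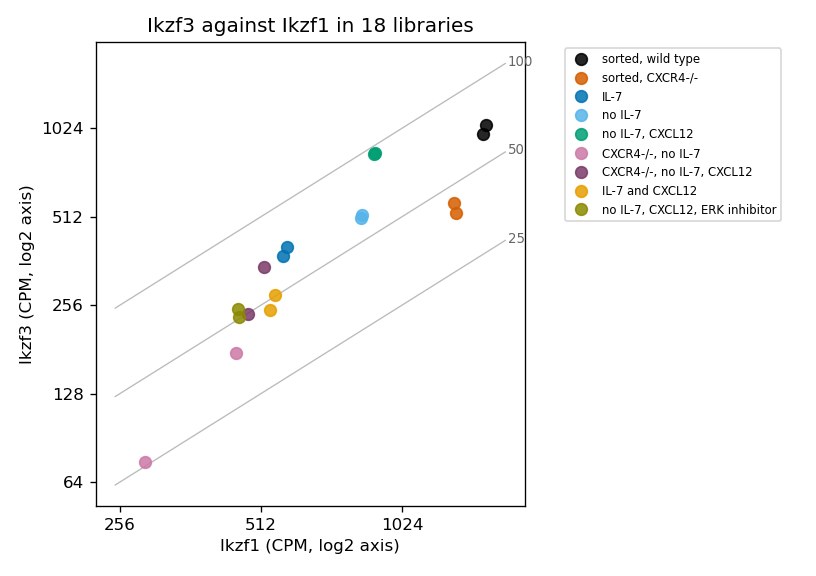
Ikzf3 against Ikzf1 (CPM, both axes log2) in 18 libraries coloured by group, with grey lines at 100, 50 and 25 Ikzf3 per 100 Ikzf1. The CXCL12 libraries lie nearest the line of 100 at 94.3 and 93.9, and replicate 1 of CXCR4-/- cells without IL-7 lies at 25.9.

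The sorted cells address what CXCR4 deficiency changes in cells not cultured. Ikzf3 was 1.85-fold lower in the libraries labelled CXCR4-/- (log2 -0.89 ± 0.28 SE, n = 2 against 2, edgeR adjusted p = 0.029). Ikzf1 differed by -0.21 ± 0.15 (adjusted p = 0.299) and Ikzf2 by -0.20 ± 0.22 (adjusted p = 0.535), neither passing 0.05. Among the 14862 genes, 16.6% passed as higher and 17.6% as lower, a background that 1 call among 3 members does not stand clear of. The call for Ikzf3 did not hold when any 1 of the 4 libraries was left out, although the change stayed between -0.95 and -0.84. It did not hold without the 4 Gapdh-high libraries either (edgeR adjusted p = 0.056). It held when only the sorted libraries were fitted (-0.85 ± 0.08, adjusted p = 0.000696). Without both CXCR4-/- culture libraries without IL-7 it held too (-0.89 ± 0.125, edgeR adjusted p = 8e-05). Those fits called 5417 and 8015 genes in all, against 5079 in the main model. Summed pre-B markers were also lower in CXCR4-/- sorted cells (7256 and 8532 against 11733 and 11373 CPM). Of the 10 genes, 4 were called lower and 0 higher, with a median log2 change of -0.238. Mature B markers were lower as well (7 genes, 6 called lower, 334 and 429 against 815 and 761 CPM). Myeloid markers (12 genes) were at 6962 and 1210 against 5709 and 5649 CPM, plasma cell markers (4 genes) at 188 and 199 against 569 and 549 CPM, and Xist at 31.5 and 2078 against 474 and 410.5 CPM. Their part in the result was not tested, and in bulk samples fewer cells of a type and less RNA per cell cannot be told apart.

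Withdrawal of IL-7 raised Ikzf1 1.46-fold (log2 0.54 ± 0.15, adjusted p = 0.033). Ikzf3 was 0.39 ± 0.28 higher (adjusted p = 0.434) and Ikzf2 0.30 ± 0.19 higher (adjusted p = 0.379), without passing. In this comparison 5.60% of genes were called higher and 6.23% lower. The Ikzf1 call was lost when any 1 of the 4 libraries was left out, with the change at 0.53 to 0.55. It was also lost without the 4 Gapdh-high libraries (edgeR adjusted p = 0.0935). With only the IL-7 and no-factor libraries fitted it held (0.50 ± 0.02, adjusted p = 1.71e-06). It also held without both CXCR4-/- libraries without IL-7 (0.52 ± 0.05, adjusted p = 1.04e-06). Ikzf3 passed in those last fits too (edgeR adjusted p = 9.02e-05 and 0.0395). Those fits called 7299 and 5028 genes in all, against 1758 in the main model. The pair without IL-7 came close to counting error alone (median chi-square 0.601). Summed pre-B markers went from 4883 and 4556 to 5885 and 5788 CPM in the IL-7 and no-factor libraries, with 2 of 10 called higher and 1 lower. Stromal markers (9 genes) went from 522 and 900 to 1274 and 1255 CPM in the same libraries. Myeloid markers went from 168 and 224 to 304 and 304 CPM and plasma cell markers from 246 and 253 to 132 and 129 CPM, and their part was not tested.

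Adding CXCL12 to cultures already without IL-7 left no member past the threshold in the model of all 18 libraries. Of all genes, 17.3% were called higher and 13.2% lower there. Ikzf3 differed by 0.72 ± 0.28 (adjusted p = 0.0736, unadjusted 0.026), Ikzf2 by 0.48 ± 0.19 (adjusted p = 0.0773, unadjusted 0.0277) and Ikzf1 by 0.09 ± 0.15 (adjusted p = 0.684). DESeq2 called Ikzf2 and Ikzf3 here (adjusted p 0.0432 and 0.0401). With only these groups fitted, edgeR called Ikzf3 (0.62 ± 0.02, adjusted p = 2.65e-28) and Ikzf2 (0.43 ± 0.12, adjusted p = 0.00177). That fit called 10790 genes in all, against 4543 in the main model. Its spread comes from pairs near counting error alone (median chi-square 0.557 and 0.601). Without both CXCR4-/- libraries without IL-7, edgeR called Ikzf3 (0.62 ± 0.12, adjusted p = 0.00132) but not Ikzf2 (adjusted p = 0.0807), among 7814 genes called. Without the 4 Gapdh-high libraries it called neither (0.174 and 0.24). The sign of Ikzf1 turned under 3 settings, with values from -0.012 to -0.0037, so no direction is given for it.

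Where CXCL12 replaced IL-7, all 3 members rose, among 29.8% of genes called higher and 21.5% lower. Ikzf3 rose 2.15-fold (log2 1.11 ± 0.28, adjusted p = 0.00623), Ikzf2 1.72-fold (0.78 ± 0.20, adjusted p = 0.00513) and Ikzf1 1.55-fold (0.63 ± 0.15, adjusted p = 0.00345). Both CXCL12 libraries lay above both IL-7 libraries for each member. The Ikzf2 call was lost without CXCL12 replicate 1 (adjusted p = 0.0646) or without IL-7 replicate 1 (0.0522). Pre-B markers rose alongside, from 4883 and 4556 to 7364 and 7243 CPM, as did stromal markers (9 genes with Lum at 0 in both groups, from 522 and 900 to 3213 and 3148 CPM) and myeloid markers (from 168 and 224 to 755 and 761 CPM). Their part in the rise was not tested. This comparison and the previous pair share libraries and are not independent.

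In cultures labelled CXCR4-/-, CXCL12 raised all 3 members as well, against 12.8% of genes called higher and 21.0% lower. Ikzf2 rose by 1.31 ± 0.24 and Ikzf3 by 1.22 ± 0.29 on the log2 scale (adjusted p = 0.0218 for each), and Ikzf1 by 0.43 ± 0.15 (adjusted p = 0.0416). Both libraries with CXCL12 exceeded both without for each gene. The spread of the untreated pair bears on this: without its replicate 1, Ikzf1 changed by 0.16 (adjusted p = 0.107) and Ikzf3 by 0.74 (0.0222). Calls were also lost without CXCL12 replicate 2 for Ikzf1, Ikzf2 and Ikzf3 (adjusted p 0.215, 0.174 and 0.174), without CXCL12 replicate 1 for Ikzf1 and Ikzf3 (0.0786 and 0.0586), and when only these 4 libraries were fitted (0.418 to 0.42). Without the untreated replicate 2 the changes of Ikzf1 and Ikzf3 grew to 0.79 and 1.96.

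Whether the CXCL12 response differed by genotype was tested as an interaction, in which 12.1% of genes were called higher and 13.1% lower and no member passed. Differences, CXCR4-/- minus sufficient, were 0.83 ± 0.31 for Ikzf2 (adjusted p = 0.0669), 0.50 ± 0.40 for Ikzf3 (adjusted p = 0.38) and 0.34 ± 0.21 for Ikzf1 (adjusted p = 0.246). Unadjusted p was 0.0195, 0.232 and 0.126. Without the untreated CXCR4-/- replicate 2 all 3 passed, Ikzf1 at 0.70 (adjusted p 1.21e-06), Ikzf2 at 0.98 (0.031) and Ikzf3 at 1.25 (0.00029). Without untreated replicate 1 none did, at 0.16, 0.78 and 0.12 (adjusted p 0.116, 0.125 and 0.748). Ikzf2 also passed without the CXCR4-/- CXCL12 replicate 1 (1.10, 0.0285).

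Each member was lower in CXCR4-/- than in sufficient cultures under both media. Without factors Ikzf3 was 4.08-fold lower (log2 -2.03 ± 0.29, adjusted p = 9.91e-05), Ikzf2 3.67-fold (-1.87 ± 0.23, adjusted p = 2.77e-05) and Ikzf1 2.26-fold (-1.18 ± 0.15, adjusted p = 3.72e-05), among 31.0% of genes called higher and 34.6% lower. With CXCL12 Ikzf3 was 2.88-fold lower (-1.53 ± 0.29, adjusted p = 0.000537), Ikzf2 2.06-fold (-1.04 ± 0.21, adjusted p = 0.000766) and Ikzf1 1.79-fold (-0.84 ± 0.15, adjusted p = 0.000323), among 27.3% called higher and 35.7% lower. The groups did not overlap for any member. Without CXCR4-/- replicate 2 the difference of Ikzf3 in medium lacking factors was -2.77, and without replicate 1 it was -1.61. Calls without factors were lost for Ikzf1 and Ikzf3 when only those 4 libraries were fitted (adjusted p 0.0621 and 0.0629). Several marker sums moved with the label. Myeloid markers were at 11.6 to 17.7 CPM in the CXCR4-/- cultures against 304 to 761 CPM in these sufficient ones, with Elane and Camp at 0 in all 4 CXCR4-/- libraries. Stromal markers were at 4.09 to 10.0 against 1255 to 3213 CPM. All 7 mature B markers were called lower in both media, summing to 63.8 to 106 against 244 to 329 CPM. Summed pre-B markers were at 4421 and 4128 against 7364 and 7243 CPM with CXCL12, where 8 of 10 were called lower. Without factors they were at 7345.5 and 4765 against 5885 and 5788 CPM, with 1 called higher and 3 lower. Plasma cell sums went the other way, at 353 to 431 against 129 to 146 CPM. Their part was not tested, and stage as labelled differs too.

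**Figure D3:**
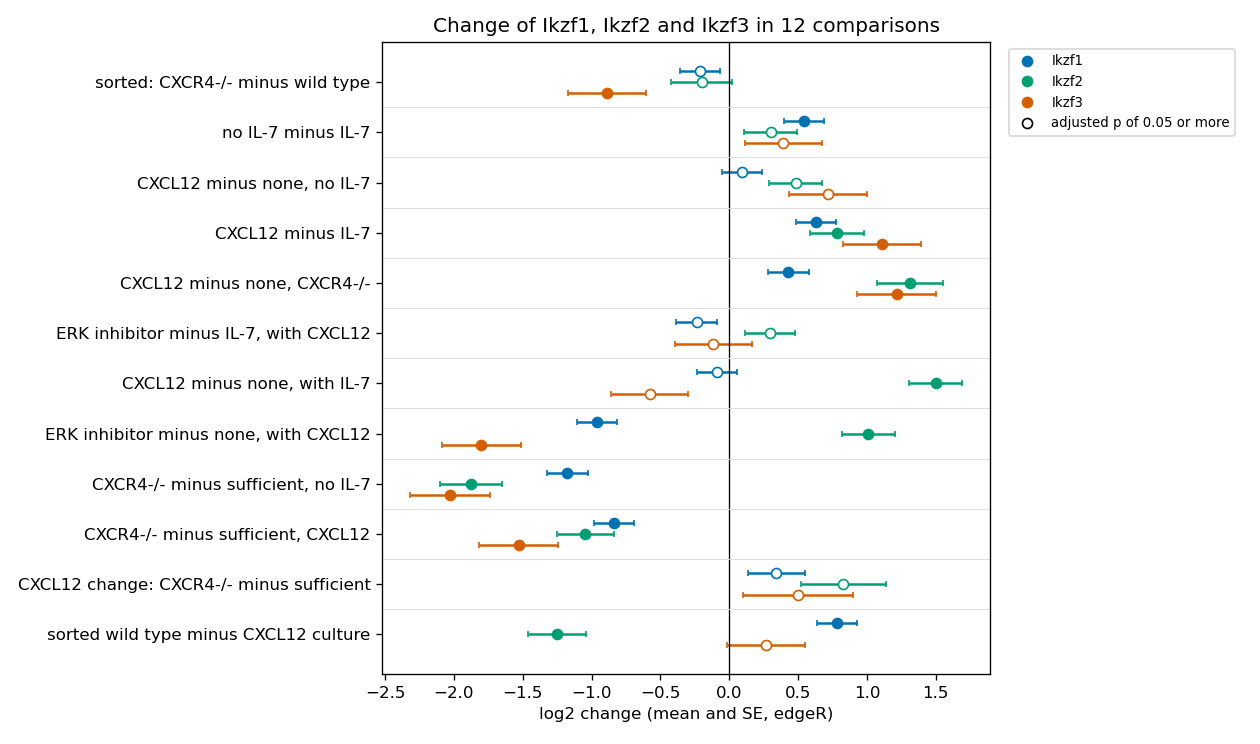
Log2 change of each member (point, with SE as the bar) in 12 comparisons, filled where the edgeR adjusted p is under 0.05. All 3 members lie above 0 where CXCL12 replaced IL-7, with Ikzf3 at 1.11, and below 0 in CXCR4-/- minus sufficient cultures, whereas Ikzf2 goes the other way from Ikzf1 and Ikzf3 with ERK inhibitor.

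ERK inhibitor under CXCL12 lowered Ikzf3 3.48-fold (log2 -1.80 ± 0.29, adjusted p = 0.000197) and Ikzf1 1.94-fold (-0.96 ± 0.15, adjusted p = 0.000139), while Ikzf2 was 2.02-fold higher (1.01 ± 0.19, adjusted p = 0.000633). Of all genes, 26.9% were called higher and 30.0% lower here. Adding CXCL12 in the presence of IL-7 raised Ikzf2 2.83-fold (1.5 ± 0.19, adjusted p = 8.27e-05), with 15.3% of genes called higher and 16.5% lower. Ikzf3 differed there by -0.58 ± 0.28 (adjusted p = 0.144) and Ikzf1 by -0.09 ± 0.15 (adjusted p = 0.697). Both comparisons cross the Gapdh divide and share it with the media. Beside the fall of Ikzf1 and Ikzf3 with ERK inhibitor, pre-B markers went from 7364 and 7243 to 3855 and 3999.9 CPM, mature B markers from 329 and 321 to 103 and 103 CPM and stromal markers from 3213 and 3148 to 75.4 and 84.5 CPM, and their part was not tested. Inside the Gapdh-high set, ERK inhibitor against IL-7 under CXCL12 gave 0.30 ± 0.18 for Ikzf2 (adjusted p = 0.406), -0.24 ± 0.15 for Ikzf1 (adjusted p = 0.398) and -0.12 ± 0.28 for Ikzf3 (adjusted p = 0.89), with 6.50% of genes called higher and 4.54% lower.

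Sorted wild-type cells compared with CXCL12 cultures had 1.72-fold more Ikzf1 (log2 0.78 ± 0.15, adjusted p = 0.000754) and 2.38-fold less Ikzf2 (-1.25 ± 0.21, adjusted p = 0.000342), among 23.8% of genes called higher and 27.6% lower. Ikzf3 differed by 0.27 ± 0.28 (adjusted p = 0.459). Myeloid markers were at 5709 and 5649 CPM in these sorted cells against 755 and 761 CPM in the cultures, and stromal markers at 28.9 and 28.8 against 3213 and 3148 CPM, so cell makeup and culture differ together and cannot be told apart.

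Because Helios is a T cell gene, markers of other cells were set beside Ikzf2. T cell markers (10 genes) summed to 52.8 to 56.1 CPM in the 4 Gapdh-high libraries, where Ikzf2 was highest, and to 3.12 to 11.9 CPM in the other 14. NK cell markers (6 genes) summed to 17.4 to 19.2 CPM in the former, 1.17 to 4.10 CPM in the other cultures and 11.3 to 25.4 CPM in sorted cells. Across sufficient cultures Ikzf2 and myeloid markers were ordered alike, from 168 and 224 CPM of myeloid markers with IL-7 to 3436 and 3505 CPM with ERK inhibitor. Sorted cells broke that order, having 1210 to 6962 CPM of myeloid markers and 1.85 to 2.43 CPM of Ikzf2. The part of these cells in Ikzf2 counts was not tested.

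**Figure D4:**
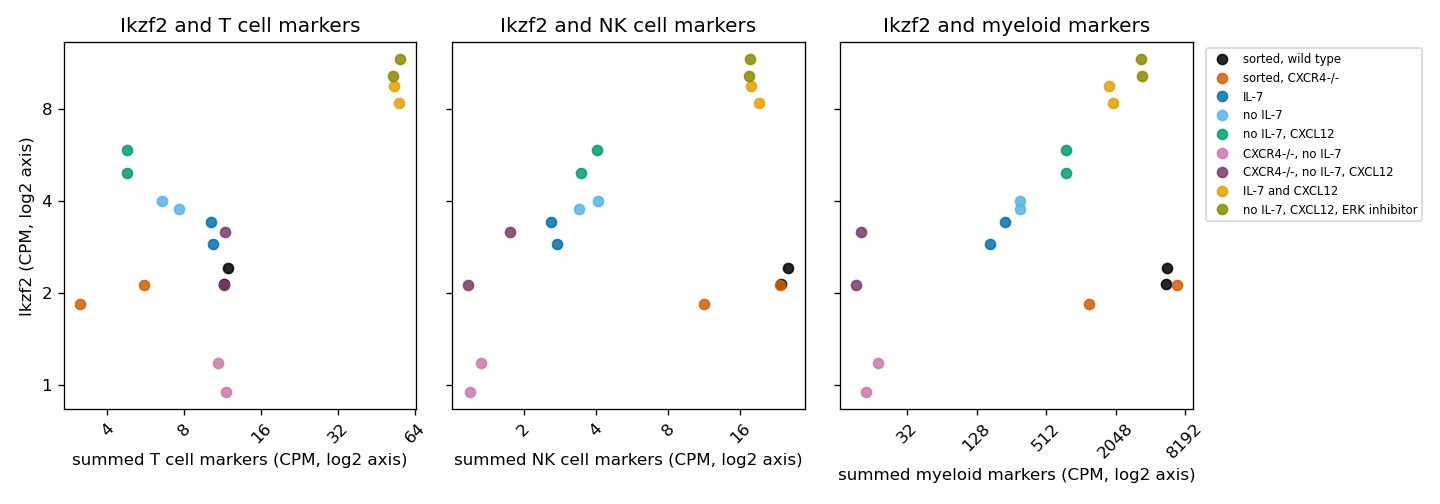
Ikzf2 (CPM, log2 axis) against summed T cell, NK cell and myeloid markers (CPM, log2 axes), each point a library. The Gapdh-high libraries stand alone at 52.8 to 56.1 CPM of T cell markers, and sorted cells combine many myeloid counts with at most 2.43 CPM of Ikzf2.

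The other family genes behaved differently. Ikzf4 (Eos) was at 4.31 and 4.59 CPM under the 2 factors together and at 3.78 and 3.62 CPM under IL-7 alone, but had 26 and 28 counts without IL-7 and 4 and 2 counts with CXCL12 alone. It had 0 and 3 counts in sorted wild-type cells and 0 in both sorted CXCR4-/- libraries, where the 95% exact Poisson interval reaches up to 0.112 and 0.134 CPM. Ikzf4 therefore fell on IL-7 withdrawal (adjusted p = 0.0029) and where CXCL12 replaced IL-7 (adjusted p = 3.16e-05). Ikzf5 (Pegasus) ranged from 28.5 to 55.7 CPM and did not pass in the latter comparison (0.01 ± 0.10, adjusted p = 0.973). It was lower in sorted CXCR4-/- cells (35.6 and 37.5 against 55.7 and 48.5 CPM, log2 -0.51 ± 0.10, adjusted p = 0.00141). Unlike the 3 members, Ikzf4 and Ikzf5 were both called higher in CXCR4-/- than in sufficient cultures, beside 31.0% of genes without factors and 27.3% with CXCL12. Ikzf4 was at 0.990 and 2.77 against 0.563 and 0.684 CPM without factors. With CXCL12 it was at 2.85 and 3.21 against 0.0887 and 0.110 CPM. The differences of Ikzf5 were 0.47 ± 0.10 without factors and 0.54 ± 0.10 with CXCL12. Both genes were also called higher with ERK inhibitor under CXCL12 (Ikzf5 by 0.65 ± 0.10), beside 26.9% of genes, a comparison across the Gapdh divide. Ikzf5 was at 47.8 and 42.6 CPM with ERK inhibitor and at 44.1 and 48.6 CPM with IL-7 and CXCL12. The other sufficient cultures held 28.5 to 32.7 CPM.

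Genes that Ikaros or Aiolos is known to lower formed a list of 9. Whether the members acted on these genes, or on the raised genes below, was not tested. Where CXCL12 replaced IL-7 and the members rose, 7 of the 9 fell and 1 rose, beside 21.5% and 29.8% of all genes, with a median log2 change of -1.54 against 0.122 over all genes. Myc, the growth regulator, fell by 2.61 ± 0.08 and Ccnd3 (cyclin D3) by 1.56 ± 0.13. Igll1, a surrogate light chain gene, was at 1003 and 968 CPM with IL-7 and at 345 and 335 CPM with CXCL12. Dtx1, a Notch regulator, went the other way, from 8.50 and 7.55 to 100.55 and 95.1 CPM. In the sorted CXCR4-/- cells 6 of the 9 were higher and none lower, beside 16.6% higher over all genes (median 1.73 against -0.0146). Igll1 was at 259 and 455 against 77.5 and 75.3 CPM there. In CXCR4-/- against sufficient cultures with CXCL12 7 were higher and 1 lower, beside 27.3% higher (median 1.55 against -0.142). With ERK inhibitor under CXCL12, across the Gapdh divide, the counts were 7 and 1, beside 26.9% higher (0.988 against -0.0212). Inside the Gapdh-high set, ERK inhibitor against IL-7 gave 1 higher and 2 lower, beside 6.50% and 4.54% (median -0.142 against -0.0126).

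The 5 genes that Ikaros or Aiolos is known to raise moved the opposite way in the same comparisons. Rag1, Rag2 and Blnk among them are also in the pre-B marker sums. All 5 rose where CXCL12 replaced IL-7, beside 29.8% of all genes (median 0.827 against 0.122), Rag1, a subunit of the recombinase, from 106 and 92.9 to 434 and 429 CPM and Foxo1, which drives Rag expression, from 287 and 275 to 501 and 497 CPM. All 5 were lower in CXCR4-/- than in sufficient cultures with CXCL12, beside 35.7% of all genes (median -0.762 against -0.142). Without factors, where each member was lower in CXCR4-/- cultures as well, only 2 of the 5 were lower, beside 34.6% of all genes. Their median there was -0.0682 against -0.132. In sorted CXCR4-/- cells 3 were lower, beside 17.6% (median -0.43 against -0.0146), among them Rag1 at 1526 and 1752 against 3571 and 3232 CPM and Cdkn1b, an inhibitor of the cell cycle. CXCL12 given to CXCR4-/- cells, where the members rose, left 1 higher and 1 lower, beside 12.8% and 21.0% of all genes (median -0.0697 against 0.0). Blnk fell there by 0.71 ± 0.19 (edgeR adjusted p = 0.0219).

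Cofactor genes moved in both directions. Of 13 NuRD complex genes, 9 fell and 1 rose where CXCL12 replaced IL-7, beside 21.5% lower and 29.8% higher over all genes (median -0.557 against 0.122), Rbbp7, a histone chaperone subunit, going from 324 and 324 to 142 and 139 CPM. The NuRD gene that rose was Chd3, a remodelling ATPase, from 269 and 255 to 410.26 and 404 CPM, and Chd3 was at 173 and 187 CPM in CXCR4-/- cultures with CXCL12. In sorted CXCR4-/- cells 6 were higher and none lower, beside 16.6% higher over all genes (median 0.335 against -0.0146). In CXCR4-/- cultures with CXCL12 9 were higher and 1 lower, beside 27.3% higher (median 0.655 against -0.142). Chd4, the main NuRD remodeller, did not pass where CXCL12 replaced IL-7 (-0.28 ± 0.20, adjusted p = 0.252). Of 7 other cofactors, 2 rose and 2 fell there (median -0.283), Smarca4, the ATPase of the BAF complex, going from 2042 and 1928 to 2665 and 2615 CPM and Smarcc1, another BAF subunit, falling by 1.04 ± 0.13. Among 8 regulators of B lineage genes, 5 rose and 1 fell where CXCL12 replaced IL-7 (median 0.52 against 0.122), Irf4 by 1.68 ± 0.10 and Spib by 1.01 ± 0.08. The gene that fell was Runx1, by 0.45 ± 0.14.

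**Figure D5:**
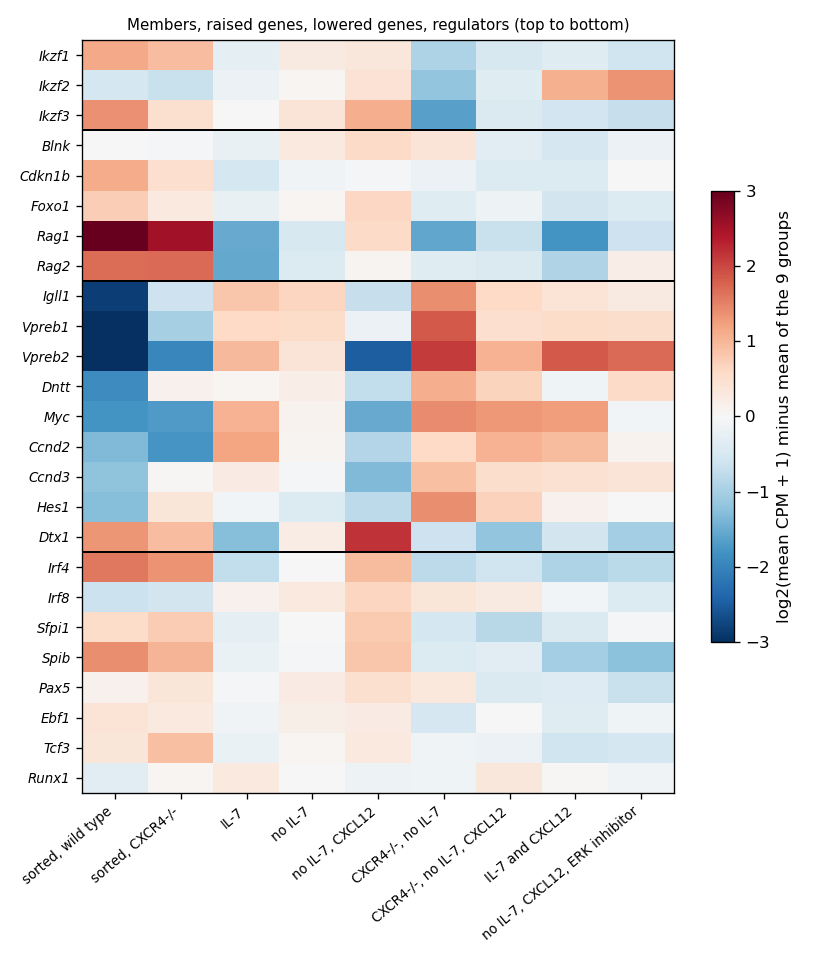
Log2(mean CPM + 1) of each gene minus its mean over the 9 groups (colour, limited to -3 and 3) for the 3 members, 5 genes raised and 9 genes lowered by Ikaros or Aiolos, and 8 regulators, with groups across. Surrogate light chain genes Igll1, Vpreb1 and Vpreb2 are lowest in sorted wild-type cells, where Ikzf1 and Ikzf3 are highest. Sfpi1 is the table's name for Spi1.

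Genes with the most similar pattern were taken from 9071 genes by Pearson correlation of log2 CPM over the 9 group means, as a description across points that share libraries. Nearest to Ikzf1 were Chst15 (0.991), Zscan20 (0.991), Pan2 (0.990), Tirap (0.988) and Exoc6 (0.984), and most opposite were Cndp2 (-0.986), Calr (-0.975) and Gmds (-0.974). For Ikzf3 they were Adamts6 (0.994), Kdm5a (0.993), Nckap1l (0.993), Mau2 (0.992) and Trp53bp2 (0.991), opposite to Cenpw (-0.985), Mrps18c (-0.984) and Mrpl42 (-0.984). Ikzf2 was nearest to Rab7 (0.965), Atp2b1 (0.954), Cd274 (0.942), Ptpn12 (0.939) and Tlr4 (0.939), and opposite to Idh3b (-0.972), Ubl7 (-0.968) and Smarcd2 (-0.960). Rab7, which marks late endosomes, was at 135 to 143 CPM in the Gapdh-high libraries and at most 59.3 CPM elsewhere. Among themselves, Ikzf1 and Ikzf3 correlated at 0.904 and Ikzf2 correlated with them at -0.137 and 0.0907. Over the 18 libraries 4, 3 and 4 of the 5 nearest genes of Ikzf1, Ikzf2 and Ikzf3 were the same.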

How the data were processed

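RNA-seq was analysed in 18 libraries grouped by their labels. Raw read counts per gene symbol were deposited as 1 table. Per the labels' protocols, polyadenylated RNA was made into libraries that keep strand. STAR and featureCounts were among the tools and mm9 was the build, per the submitters' processing notes, while the sources used here give no versions, annotation or strand setting, so reads of overlapping or antisense genes may be shared. RefSeq (GRCm38.p6) lists Gm11999 within Ikzf1 and Gm25106 within Ikzf3, and neither is in the table. No column belonged to another series. The ATAC-seq peak lists were not used here, because no annotation of mm9 is at hand to place a peak at a member.

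Counts were fitted with edgeR 4.0.16 (R 4.3.3; TMM, default low-count filter, robust quasi-likelihood test) in 1 model of all 18 libraries, since groups of 2 leave too few degrees of freedom alone. Calls were made at p under 0.05 after Benjamini-Hochberg adjustment over 14862 genes, in each of 12 comparisons. SE is the log2 change over the square root of F. On simulated counts for IL-7 withdrawal (14862 genes, 3 draws), 15.5%, 58.7% and 84.8% of genes changed 1.5-, 2- and 4-fold were recovered and 5.78% of calls were false. Each simulated gene had the same spread in all groups, whereas the real pairs differed in spread (median chi-square 0.557 to 43.8). The simulated rates therefore need not hold for the data. Named genes are the members, Ikzf4 and Ikzf5, up to 4 genes of smallest p per list plus examples chosen after their values were seen, and the 5 most and 3 least similar genes with mean log2 CPM of 3 or more. Members, lists and markers were chosen with earlier results of these data known. Alternatives were other scalings (RLE, plain total, no ribosomal protein genes), filters, DESeq2 1.42.0, a 1.5-fold threshold, a replicate block, only the groups compared, close pairs summed, the Gapdh-high libraries left out and each library left out. The fit without both CXCR4-/- libraries without IL-7 was added after seeing the data.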

Additional observations from a re-analysis of the deposited data

How the results depend on the processing

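Counts of members called (of 3) changed as follows, and the cause was not tested. Where a bare number stands in brackets, it is the genes called over all in that fit. The main counts of genes called are given below. Requiring a change of at least 1.5-fold gave 0 for sorted cells (2024), IL-7 withdrawal (165), CXCL12 replacing IL-7 (3741) and CXCL12 in CXCR4-/- cultures (0). It gave 1 for sorted wild type against CXCL12 (4290). Close pairs summed to 1 library, or the fit without the Gapdh-high libraries, each gave 0 for sorted cells, IL-7 withdrawal and CXCL12 in CXCR4-/- cultures. DESeq2 gave 2 for CXCL12 without IL-7 (5156). Fitting only the groups compared gave 0 for CXCL12 in CXCR4-/- cultures (0) and 1 for CXCR4-/- without factors (2556). It gave 2 each for IL-7 withdrawal (7299), CXCL12 without IL-7 (10790), CXCL12 with IL-7 (8238) and ERK inhibitor against IL-7 (6068). Sorted wild type against CXCL12 had 3 in such a fit (10328). No filter on low counts gave 2 for CXCL12 in CXCR4-/- cultures (4664), with Ikzf1 at an edgeR adjusted p of 0.0546. Leaving out ribosomal protein genes gave 1 for the interaction (3789). Without both CXCR4-/- libraries without IL-7 the count was 3 for CXCL12 with IL-7 (7980) and 2 for sorted cells (8015) and IL-7 withdrawal (5028). It was 1 for CXCL12 without IL-7 (7814) and for ERK inhibitor against IL-7 (4664). Leaving out a library gave 0 throughout for sorted cells and IL-7 withdrawal, and 0 to 3 for the interaction and CXCL12 in CXCR4-/- cultures, and 2 to 3 where CXCL12 replaced IL-7. Ikzf1 under CXCL12 without IL-7 turned to -0.0037 (only the groups compared), -0.012 (no ribosomal protein genes) and -0.0054 (without both CXCR4-/- libraries). The median of all genes moved by -0.102 and -0.14 without ribosomal protein genes (CXCL12 without and replacing IL-7), and by up to -0.198 with plain totals.

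Genes called over all settings ran, with the main count first, from 5079 (2024 to 8015) in sorted cells, 1758 (165 to 7299) for IL-7 withdrawal, 4543 (1149 to 10790) for CXCL12 without IL-7, 7629 (3741 to 11006) for CXCL12 replacing IL-7, 5020 (0 to 8602) for CXCL12 in CXCR4-/- cultures, 1640 (343 to 6068) for ERK inhibitor against IL-7, 4720 (2253 to 8238) for CXCL12 with IL-7, 8460 (4879 to 11925) for ERK inhibitor under CXCL12, 9743 (2556 to 11038) and 9366 (6019 to 11276) for CXCR4-/- cultures without and with CXCL12, 3750 (1078 to 8377) for the interaction, to 7635 (4290 to 10328) for sorted wild type against CXCL12. The replicate block changed no count of members called (1 in sorted cells, 3 where CXCL12 replaced IL-7). Replicate numbers were not taken to pair libraries: same-numbered deviations correlated at -0.162 to 0.215, 2 of 36 over 0.1. With 2 libraries a group, low counts of Ikzf2 (23 to 530) and the spread of the untreated CXCR4-/- pair limit what can be told.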

Other observations

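Of the NuRD subunits, Hdac1 and Chd3 split along the Gapdh divide. Hdac1, a histone deacetylase, was at 183 to 210.08 CPM in the 4 Gapdh-high libraries and at 33.2 to 80.02 CPM in the other 14. Chd3, a remodelling ATPase of NuRD, was at 72.5 to 79.4 CPM in those 4 and at 99.3 to 410.26 CPM elsewhere. Counts of NuRD genes across that divide include both genes. With ERK inhibitor under CXCL12, 5 of the 13 were higher and 2 lower, beside 26.9% and 30.0% of all genes.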
